A study of Mus musculus with 3 samples.

Results

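Strong DMC1 signal over weak H3K4me3 was found at 239 of the 24586 DMC1 hotspots deposited for the testis of (C57BL/6J x CAST/EiJ) F1 mice. The sites were selected on the signals themselves: autosomal sites assigned by the authors to the CAST or the humanized (HUM) allele of Prdm9, away from PRDM9-independent H3K4me3 peaks, with a DMC1 signal of at least 100 and an H3K4me3 enrichment of at most 7, both in the authors' units. Of the 20013 autosomal CAST and HUM sites away from such peaks, here called eligible sites, 1.19% met both limits. All animals were F1 males of the B6 by CAST cross with the Prdm9 genotype HUM/CAST, so no animal without the humanized allele was compared. DMC1 was measured by ChIP-seq of single-stranded DNA in whole testis of a 10-week-old male, and H3K4me3 by ChIP-seq of micrococcal nuclease digested chromatin from an adult male, with 1 library per assay. The header of the table names another study as the source of its H3K4me3 data, and whether they come from this library was not established. An MNase library of the same genotype was not analysed here. With 1 library per assay there is no replicate check, sites are not replicates, and no p-value was computed. The number of reads behind a site is unknown. Whole testis mixes germ cell stages and somatic cells, and fewer cells with a mark cannot be told apart from less of it per cell.

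PRDM9 is a zinc-finger histone methyltransferase of meiotic prophase. It binds a DNA motif, deposits H3K4me3 on the nucleosomes beside it, and SPO11 then makes double-strand breaks at a subset of the marked places. The break ends are resected to single strands on which DMC1 assembles and searches the homologous chromosome for a repair template. H3K4me3 therefore reads an early step of a hotspot and DMC1 a later one, in which break number and the time DMC1 stays on the DNA both count. In a hybrid, sequence differences between the homologues can make PRDM9 bind 1 of them only. The share of a mark on the B6 homologue (B6 share) runs from 0 for CAST only to 1 for B6 only. It gives the division of that mark between the homologues. For DMC1, break number and time on the DNA enter this share as well.

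Sequence at the sites could be read only where a RefSeq promoter window of GRCm38.p6, the build equal to mm10, lay close by. Each window runs from 250 bases before to 50 after a gene's start, and 2 of them lay within 500 bases of a member's centre. Both members were HUM sites. They are shown because they give the local sequence of a member used on the CAST homologue and of the member whose marks disagreed most towards B6. The window of Gm10318 (chr10:77852609-77852908, plus strand, GC content 57.3%) began 237 bases beyond the first site, at chromosome 10 position 77852372 inside Tspear, and the window of Gm46366, a long non-coding RNA (chr12:81791041-81791340, minus strand, GC content 42.7%), began 172 bases beyond the second, at chromosome 12 position 81790869. Capitals mark a match to CCTCCCT, the core of the human PRDM9 motif, on either strand.
Gm10318: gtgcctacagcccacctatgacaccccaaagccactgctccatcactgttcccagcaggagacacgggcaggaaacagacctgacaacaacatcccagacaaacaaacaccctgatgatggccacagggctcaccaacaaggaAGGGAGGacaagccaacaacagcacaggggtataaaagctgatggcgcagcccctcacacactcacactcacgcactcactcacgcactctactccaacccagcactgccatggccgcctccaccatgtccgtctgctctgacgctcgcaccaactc
Gm46366: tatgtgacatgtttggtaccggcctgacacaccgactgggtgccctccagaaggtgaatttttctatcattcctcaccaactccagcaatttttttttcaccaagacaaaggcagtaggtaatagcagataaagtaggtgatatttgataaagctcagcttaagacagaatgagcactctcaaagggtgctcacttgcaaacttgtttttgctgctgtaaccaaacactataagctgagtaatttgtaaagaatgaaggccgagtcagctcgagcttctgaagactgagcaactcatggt
The Gm10318 window held 1 such match, on the minus strand from base 144, and the Gm46366 window held none. The longer degenerate motif of human PRDM9, of which CCTCCCT is the core, matched neither. The core was present in 15.5% of 32585 promoter windows and the longer motif in 6.34%. Neither window covers the centre of its site, so the absence of a match says nothing of the site's own motif. The site by Gm10318 had a DMC1 signal of 190.3, an H3K4me3 of 6.08 and B6 shares of 0.0120 for DMC1 and 0.0857 for H3K4me3. The site by Gm46366 had 111 and 5.41, with shares of 0.867 and 0.286.

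By construction, the members lay at the corner of the joint distribution. Their DMC1 ran from 100.1 to 696 with a median of 127, and their H3K4me3 from 2.17 to 6.998 with a median of 5.74. The ratio of DMC1 to H3K4me3, which has no absolute scale, had a median of 24.5. It was 5.89 at the 5796 eligible sites that shared the H3K4me3 limit but had DMC1 under 100. It was 10.5 at the 7582 that shared the DMC1 limit but had H3K4me3 over 7. Neither set was matched to the members beyond the limit, with a median H3K4me3 of 4.60 in the first and a median DMC1 of 228 in the second. These sets, called the weak and the strong comparison sites below, serve for comparison throughout. The limits cut through a continuum, as the plot of DMC1 against H3K4me3 shows. The members nearest to the H3K4me3 limit had values of 6.998 and 6.994, and the nearest sites beyond it both had 7.010. On the DMC1 axis the nearest members had 100.05 and 100.21, and the nearest sites below had 99.52 and 99.50. Of those just beyond the H3K4me3 limit, the site at chromosome 12 position 40024278 had a DMC1 signal of 255.0 and a DMC1 B6 share of 0.00538. H3K4me3 values were often held in common by several sites. At 204 members (85.4%) the same value occurred elsewhere in the table, as at 83.4% of the weak and 46.0% of the strong comparison sites.

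**Figure D1:**
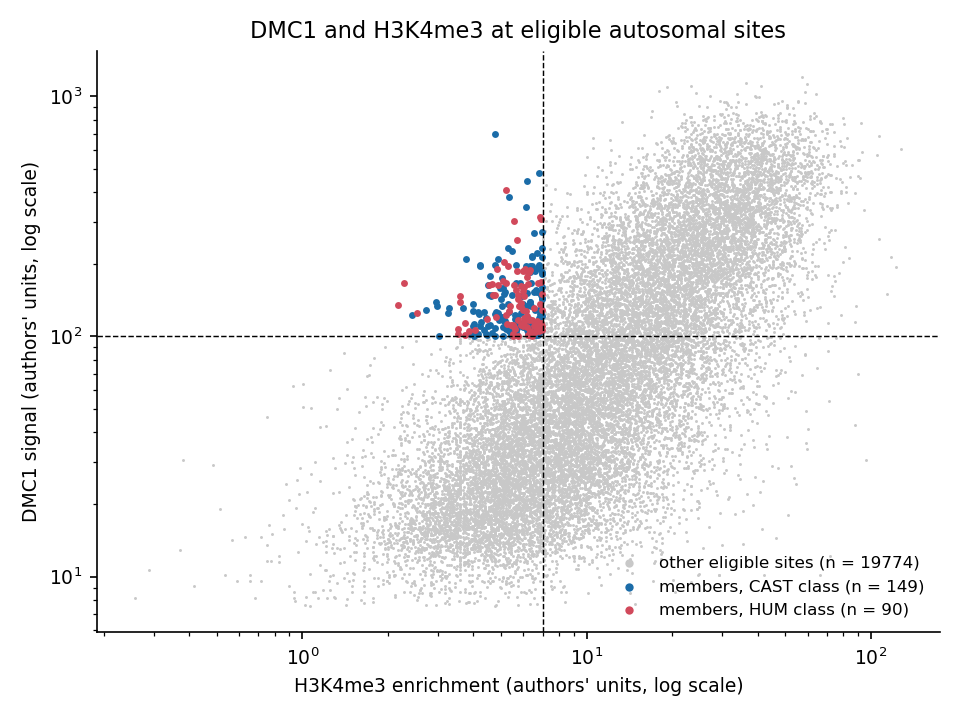
DMC1 signal (vertical) against H3K4me3 enrichment (horizontal), both on log scales in the authors' units, at the 20013 eligible autosomal sites; dashed lines are the limits of 7 and 100. The 239 members, 149 of the CAST and 90 of the HUM class, fill the upper left corner and thin out from the limits, with 1 CAST site at DMC1 696 far above the rest.

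Both Prdm9 alleles contributed members. The CAST class had 149 (62.3%, exact 95% interval 55.9% to 68.5%) and the HUM class 90 (37.7%, 31.5% to 44.1%). This was 1.31% of eligible CAST sites and 1.05% of eligible HUM sites. The HUM share was 46.7% among the weak and 33.9% among the strong comparison sites, so the makeup of the members lay between them. Median DMC1 was 127 at CAST and 129 at HUM members, and median H3K4me3 was 5.69 and 5.86, values that the rule bounds at the same limits in both classes. Over all eligible sites the classes differed more, with median DMC1 of 83.4 and 52.8 and median H3K4me3 of 12.5 and 9.98.

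The members differed from both comparison sets in homologue use. The rule did not use the shares, but its H3K4me3 limit applies to the sum over both homologues. At eligible sites, median H3K4me3 was 8.15 where the DMC1 share was under 0.1 and 11.9 where it was over 0.9. Where the share was from 0.3 to 0.7 it was 14.6. Homologue use is therefore not independent of the rule, and the part of the limit in the differences below was not tested. Of the 238 members with a DMC1 B6 share, 122 (51.3%, 44.7% to 57.8%) had a share under 0.1 and so nearly all of their DMC1 on the CAST homologue. Among all eligible sites this was 13.9%, and it was 18.9% at the weak and 12.1% at the strong comparison sites. A further 59 members (24.8%, 19.4% to 30.8%) were on the B6 homologue, with a share over 0.9. That is close to the 25.5% of the strong and above the 17.9% of the weak comparison sites, and above the 19.5% of all eligible sites. Only 44 members (18.5%) had a share from 0.3 to 0.7, against 48.7% of the strong and 35.8% of the weak comparison sites. Another 13 fell between these ranges. A single homologue thus carried DMC1 at 181 members, or 76.1% (70.1% to 81.3%), against 36.9% and 37.6% in the comparison sets. Sites just beyond a limit were closer to the members. A share from 0.3 to 0.7 was found at 21.2% of sites with DMC1 of at least 100 and H3K4me3 from 7 to 10. It was found at 19.4% of sites with H3K4me3 up to 7 and DMC1 from 75 to 100. The intervals cover counting error over sites of these libraries only.

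The lean towards the CAST homologue was present at both alleles. Of 149 CAST members 66 (44.3%, 36.2% to 52.7%) had a share under 0.1, where eligible CAST sites as a whole had 10.1% and the strong CAST comparison sites 7.41%. Of 89 HUM members 56 (62.9%, 52.0% to 72.9%) did, where eligible HUM sites had 18.98% and the strong HUM comparison sites 21.2%. Use of the B6 homologue alone was found at 41 CAST members (27.5%; 21.2% of eligible CAST sites) and 18 HUM members (20.2%; 17.4% of eligible HUM sites). At the strong CAST comparison sites B6-only use, at 30.4%, was more frequent than CAST-only use, and among CAST members the order was turned around. The median DMC1 share was 0.326 at CAST and 0.0327 at HUM members. The histograms of the share show that members were sparse between the extremes, whereas the weak comparison sites were spread over the whole range.

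**Figure D2:**
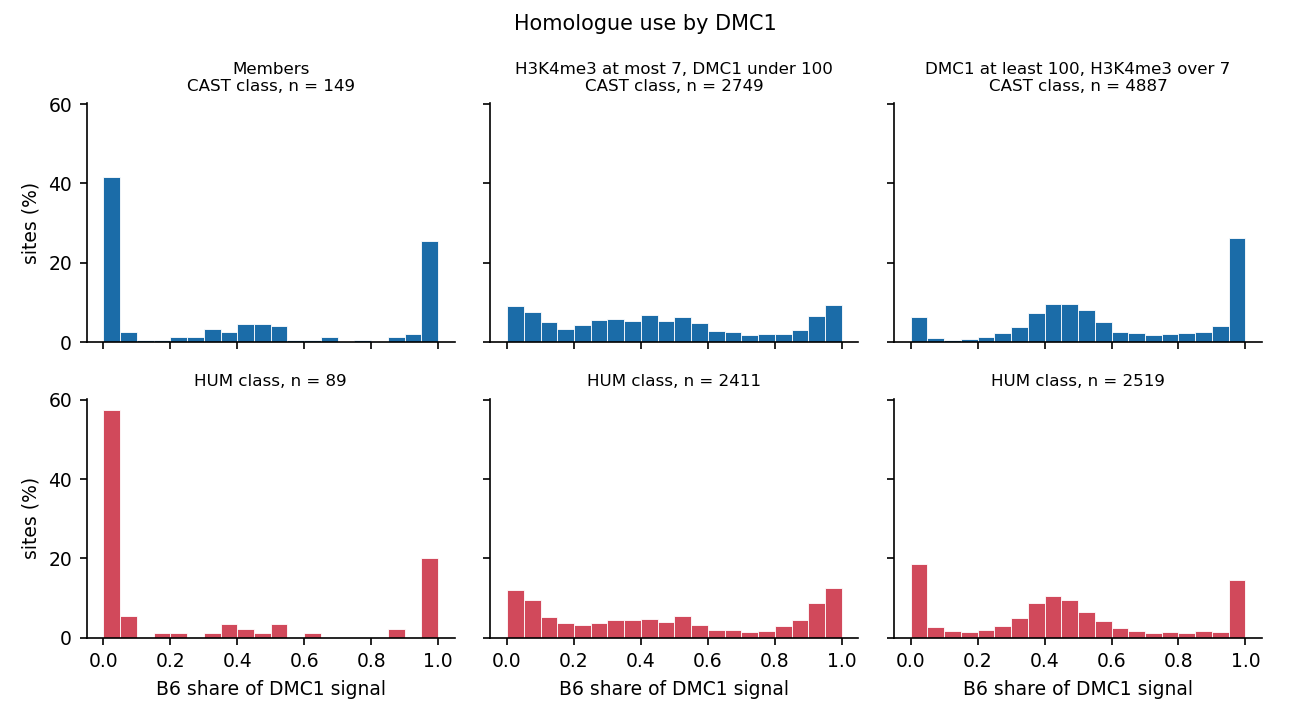
Percentage of sites (vertical) by B6 share of DMC1 in steps of 0.05 (horizontal), for CAST-class (top, blue) and HUM-class sites (bottom, red); columns are the members, the weak comparison sites and the strong comparison sites. The bar at the CAST end is the tallest in both member panels, and the central hump of the strong comparison sites is almost missing there.

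The excess was seen chromosome by chromosome. CAST-only use was more frequent among members than among the strong comparison sites on 19 of 19 autosomes, and than among the weak ones on 18 of 19, chromosome 9 being the exception, with 2 CAST-only of its 11 members. CAST-only members outnumbered B6-only members on 16 autosomes and were outnumbered on chromosomes 8, 9 and 19. On chromosome 18, 9 of 10 members were CAST-only and none was B6-only.

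The strong comparison sites had a higher DMC1 than the members, with a median of 228 against 127, so sets of like DMC1 were also compared, a choice made after the values were seen. At DMC1 from 100 to 150, CAST-only use was found at 70 of 162 members (43.2%, 35.5% to 51.2%) and at 14.5% (12.9% to 16.2%) of 1806 sites with H3K4me3 over 7. At DMC1 of 150 or more it was 52 of 76 members (68.4%, 56.7% to 78.6%) against 11.3% (10.5% to 12.2%) of 5600 sites. The difference was present in both ranges of DMC1. It was present at both alleles too: from 100 to 150, CAST-only use was 35.9% at CAST members against 8.75% of CAST sites with more H3K4me3, and 55.9% at HUM members against 22.3%.

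Homologue use changed gradually with each signal. Among all eligible sites with DMC1 of at least 100, CAST-only use fell from 55.4% at H3K4me3 up to 5, through 49.7% from 5 to 7, 35.2% from 7 to 10, 25.8% from 10 to 15 and 13.6% from 15 to 25, to 2.85% above 25. B6-only use was 24.6% in the lowest bin, peaked at 35.2% from 7 to 10 and was 19.6% above 25. Among all eligible sites with H3K4me3 up to 7, CAST-only use rose with DMC1 from 11.8% below 25 to 23.7%, 29.5%, 37.5%, 43.2% and finally 68.4% at 150 or more, while use of both homologues went from 40.5% to 9.21%. B6-only use was highest just below the limit of 100, at 30.6%, and was 21.1% at 150 or more. CAST-only use rose with DMC1 in both classes. At H3K4me3 up to 7, it went from 18.6% where DMC1 was 25 to 50 up to 63.0% at 150 or more in the CAST class, and from 29.9% to 76.7% in the HUM class. B6-only use differed between the classes: it rose from 9.60% below a DMC1 of 25 to 35.3% at 75 to 100 in the CAST class and was 23.9% at 150 or more, while in the HUM class it was 18.5%, 22.9% and 16.7% in the same bins. The members lay at the ends of both trends.

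**Figure D3:**
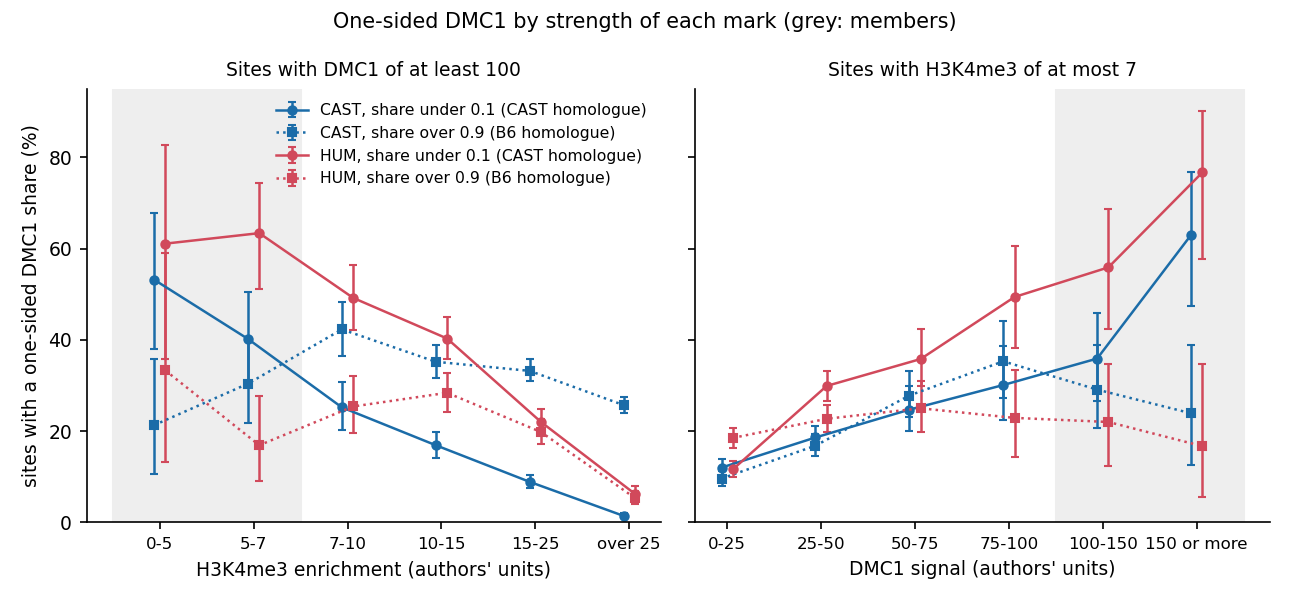
Percentage of sites with a one-sided DMC1 share (vertical, with exact 95% intervals over sites) by H3K4me3 at sites with DMC1 of at least 100 (left) and by DMC1 at sites with H3K4me3 of at most 7 (right); circles are shares under 0.1, squares shares over 0.9, blue the CAST and red the HUM class, and grey marks the members. CAST-only use rises towards the grey bins in both panels; the lowest HUM bin on the left holds 18 sites with a share.

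This order of the homologues depended on how the sites were chosen. When the same number of eligible sites was taken by the highest ratio of DMC1 to H3K4me3 instead of by both limits, a single homologue was used at still more of them, 89.7%, but the homologues were then nearly balanced, with 44.0% CAST-only and 45.7% B6-only. Over all alternatives tried, single-homologue use stayed between 68.6% and 89.7%. CAST-only use exceeded B6-only use in each of them but the ranking by ratio. Without the 204 members whose H3K4me3 value was held in common with another site, 35 were left, of which 40.0% were CAST-only and 28.6% B6-only.

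H3K4me3 was skewed to the same homologue as DMC1, but less, as at most eligible sites. Of 235 members with an H3K4me3 B6 share, 46 (19.6%; 5.14% of eligible sites) had one under 0.1 and 22 (9.36%; 9.78% of eligible sites) one over 0.9. Across the 235 members with both shares the Spearman correlation was 0.867, a description over sites that share their 2 libraries. At the 120 CAST-only members with both shares, the H3K4me3 share had a median of 0.114 (quartiles 0.0759 and 0.175). It was on the CAST side at 119 of them and less extreme than the DMC1 share at 119. At the 59 B6-only members the median was 0.881 (0.843 and 0.914), with all 59 on the B6 side and 58 less extreme. At the 44 members used on both homologues the median was 0.496, and the H3K4me3 share was less extreme than the DMC1 share at 23. Over all 235 members it was less extreme at 211. It was also less extreme at 14323 of the 18305 eligible sites with both shares. Where DMC1 was CAST-only, the H3K4me3 share of eligible sites was on the CAST side at 2476 of 2537. Where DMC1 was B6-only, it was on the B6 side at 3604 of 3620. The CAST-only and B6-only sets were chosen by an extreme DMC1 share, so the counts of 119 and 58 follow in part from that choice. Sets chosen in the same way among strong comparison sites had median H3K4me3 shares of 0.0853 where DMC1 was CAST-only and 0.927 where it was B6-only. At weak ones the medians were 0.188 and 0.846.

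**Figure D4:**
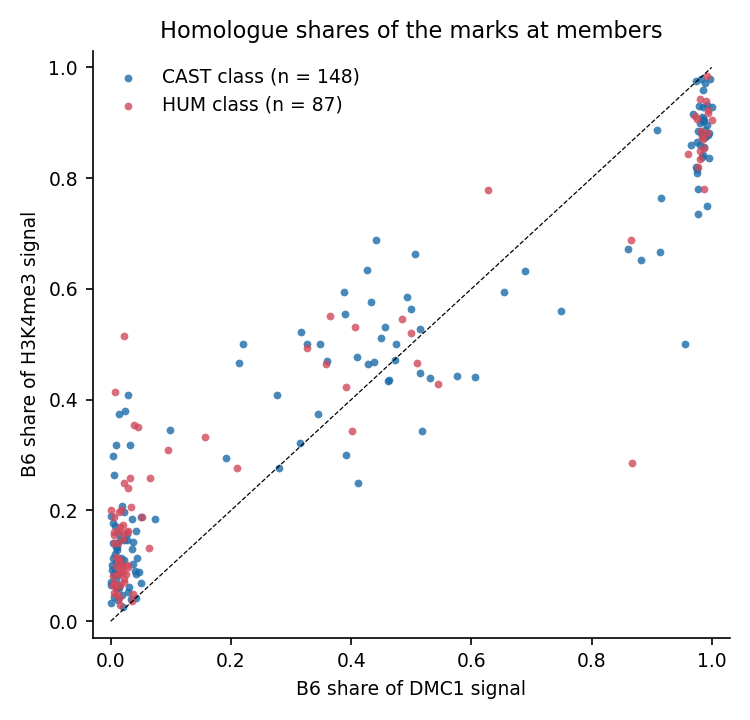
B6 share of H3K4me3 (vertical) against B6 share of DMC1 (horizontal) at the 235 members with both shares, in blue for 148 CAST and red for 87 HUM sites; the dashed line marks equal shares. Points gather in the lower left and upper right corners, above the line on the left and below it on the right, so that H3K4me3 is the less one-sided mark.

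Multiplying each signal by its share gave the signal per homologue. At CAST-only members the CAST homologue carried a median H3K4me3 of 4.91 and a median DMC1 of 134, and the B6 homologue 0.645 and 2.32. At B6-only members the B6 homologue carried 5.07 and 122, and the CAST homologue 0.658 and 2.23. At members used on both homologues the values were 3.12 and 64.1 on the CAST and 2.86 and 54.8 on the B6 homologue. The limits of the rule bound the totals, so these values follow in part from the rule and the share, and nothing is read from their differences. The same holds for the ratio, whose medians were 26.6 at CAST-only members, 24.9 at B6-only members and 19.1 at members used on both homologues.

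The 10 highest ratios among the members were all at CAST-only sites. Eligible sites outside the members also reached high ratios, up to 80.5 at a weak comparison site of the CAST class. The site 58.2 kb from Tcim, a regulator of transcription and immune responses, combined the strongest DMC1 of all members (696) with an H3K4me3 of 4.77, a ratio of 146 (chromosome 8, 24379008, CAST class). Its B6 shares were 0.0103 for DMC1 and 0.133 for H3K4me3. The next, inside Nck2, an adaptor of receptor signalling, was a HUM site with DMC1 409 and H3K4me3 5.19 (chromosome 1, 43462065; ratio 78.7). A HUM site 207 kb from Usp25, a deubiquitinase gene, had a ratio of 73.1 with a DMC1 of 167 and an H3K4me3 of 2.29 (chromosome 16, 77324271). It had no H3K4me3 share. A CAST site 22.6 kb from Atg4c, which encodes an autophagy protease, had DMC1 445 and H3K4me3 6.15 (chromosome 4, 99166587; ratio 72.4).

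Further down this list, a CAST site inside Epm2a, the gene of the glycogen phosphatase laforin, had DMC1 380.4 and H3K4me3 5.35 (chromosome 10, 11346525; ratio 71.1). A CAST site inside Synpo2, an actin-binding protein of muscle, had 481 and 6.80 (chromosome 3, 123128920; ratio 70.8). The site with the lowest H3K4me3 of all members, 2.17, lay far from genes, 1503 kb from Dsc3, a desmosomal cadherin (chromosome 18, 18457903, HUM; DMC1 135, ratio 62.4). It was also the most isolated member, 468 kb from the next hotspot. A CAST site 785 kb from Adgrl4, an adhesion receptor of endothelium, had DMC1 348 and H3K4me3 6.11 (chromosome 3, 150652663; ratio 56.9). A CAST site inside Creb5, a transcription factor gene, had a DMC1 share of 0 and an H3K4me3 share of 0.0323 (chromosome 6, 53649005; DMC1 211, H3K4me3 3.75, ratio 56.2). The tenth, a HUM site 42.5 kb from Skap2, an adaptor of immune cells, had 304 and 5.54 (chromosome 6, 51816696; ratio 54.9). The DMC1 shares of these 10 ran from 0 to 0.0481.

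Another of the strongest HUM members lay 471 kb from Adgrl4 (chromosome 3, 150966673; DMC1 309, H3K4me3 6.89). It was B6-only, with shares of 0.992 for DMC1 and 0.985 for H3K4me3, and lay 314 kb from the CAST-only site near the same gene. It was the strongest of the B6-only members. The site by Skap2 and a site inside Ust, a sulfotransferase gene, were also among the first 5 of the HUM class (chromosome 10, 8310845; DMC1 253, H3K4me3 5.69, DMC1 share 0.00302).

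Members used on the B6 homologue alone were led, in the CAST class, by a site 50.3 kb from Zfhx3, a transcription factor gene (chromosome 8, 109011905; DMC1 273, H3K4me3 6.97, DMC1 share 0.915). A site inside Sntg2, a syntrophin gene, had DMC1 227 and H3K4me3 5.46 with shares of 0.996 and 0.978 (chromosome 12, 30210112). A site 236 kb from Aebp2, a cofactor of Polycomb repressive complex, had 223 and 6.67 (chromosome 6, 140914510; DMC1 share 0.986). In the HUM class the next after the site near Adgrl4 were 244 kb from Obi1 (chromosome 14, 104766793; DMC1 192, H3K4me3 4.86) and inside Aig1 (chromosome 10, 13700422; DMC1 164, H3K4me3 5.53). Sites with the same skew in both marks were thus found at both alleles and on both homologues.

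The strongest members used about equally had less DMC1 than the strongest one-sided ones. With DMC1 shares of 0.4 to 0.6, the strongest CAST member lay 161 kb from Slc25a13, a mitochondrial carrier gene (chromosome 6, 6377821; DMC1 196, H3K4me3 4.21, shares 0.457 and 0.531). It was followed by sites 30.6 kb from Tafa5 (chromosome 15, 87789935; DMC1 194, H3K4me3 6.74) and inside Scap, a chaperone of sterol sensing (chromosome 9, 110352631; DMC1 149, H3K4me3 4.54, shares 0.515 and 0.527). The 3 strongest HUM members of this kind were inside Ankrd36 (chromosome 11, 5614045; DMC1 155, H3K4me3 5.99, shares 0.509 and 0.467), inside Dnajc2, a ribosome-associated chaperone (chromosome 5, 21768491; DMC1 116, H3K4me3 6.69), and inside Enpp6, a choline phosphodiesterase (chromosome 8, 47095904; DMC1 109, H3K4me3 6.17). The H3K4me3 share was 0.250 at the site near Tafa5, 0.532 at the one inside Dnajc2 and 0.343 at the one inside Enpp6.

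The marks disagreed strongly at a few members. A HUM site 31.8 kb from Eif4a3l1 had a DMC1 share of 0.0219 but an H3K4me3 share of 0.515 (chromosome 6, 136295759; DMC1 119, H3K4me3 6.02). Lesser gaps in the same direction were at a HUM site 2.67 kb from Mon2 (chromosome 10, 122989389; shares 0.00752 and 0.415) and a CAST site inside Pcdh17, a protocadherin (chromosome 14, 84489112; 0.0288 and 0.409). In the other direction stood the HUM site by Gm46366 shown above, whose nearest protein-coding gene is Map3k9, at 9.70 kb. Its neighbour at 2.89 kb, another HUM site, had DMC1 82.2, H3K4me3 26.3 and shares of 0.0773 and 0.0260. The 2 sites were thus used on opposite homologues by DMC1, while both H3K4me3 shares were on the CAST side. The other gaps of this direction were at 2 CAST sites inside Fyco1, an autophagosome transport gene (chromosome 9, 123836470 and 123803026). Their DMC1 shares were 0.955 and 0.914 and their H3K4me3 shares 0.5 and 0.667, at a low H3K4me3 of 2.95 and 3.69. The reads behind the H3K4me3 shares are unknown, and the part of low read numbers in these gaps was not tested.

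Members were not spread evenly over the autosomes. Their percentage among eligible sites was highest on chromosome 10 (26 of 1058, 2.46%, exact interval 1.61% to 3.58%), chromosome 14 (19 of 899, 2.11%, 1.28% to 3.28%) and chromosome 6 (25 of 1244, 2.01%, 1.30% to 2.95%). It was lowest on chromosome 17 (3 of 815, 0.368%, 0.0760% to 1.07%), chromosome 2 (7 of 1518, 0.461%, 0.186% to 0.948%) and chromosome 13 (7 of 952, 0.735%, 0.296% to 1.51%). The intervals of chromosomes 6, 10 and 14 lay above the 1.19% of all autosomes, and those of 2 and 17 below it. The share of sites with H3K4me3 up to 7, itself a limit of the rule, was 35.5% on chromosome 10, 33.7% on 14 and 30.0% on 6, and 28.7% on 17, 24.8% on 2 and 28.6% on 13. It was 36.0% on chromosome 3, which had 1.66% members (1.02% to 2.56%), and 34.0% on chromosome 12, which had 0.821% members (0.355% to 1.61%). The share with DMC1 of at least 100 ran from 37.3% on 17 to 40.7% on 6 over the 6 chromosomes named first. The part of either share in the differences between chromosomes was not tested.

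**Figure D5:**
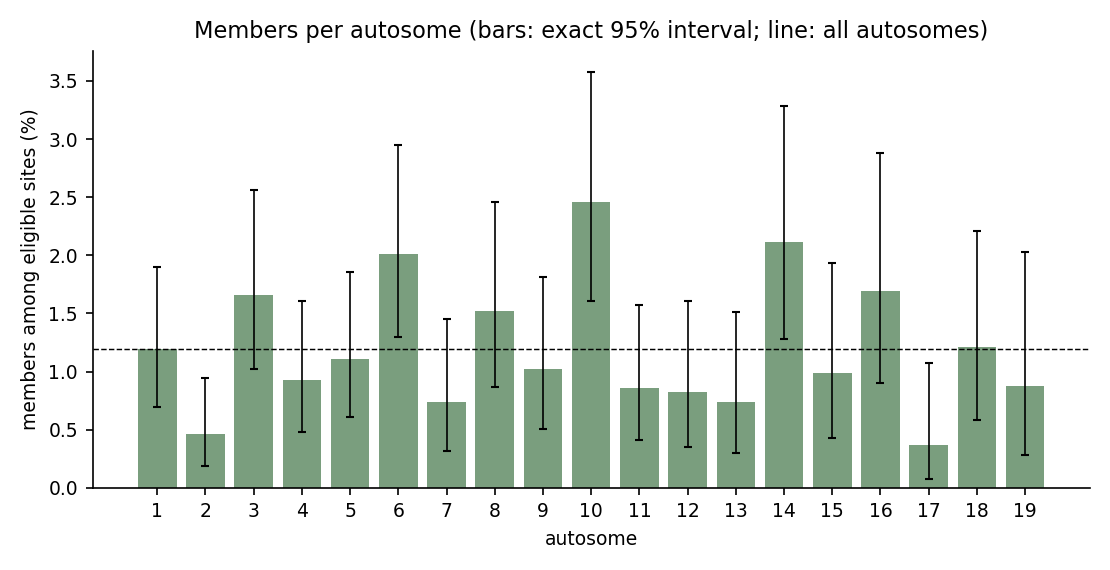
Members as a percentage of eligible sites (vertical) on each of the 19 autosomes (horizontal), with exact 95% intervals over sites; the dashed line is the 1.19% of all autosomes. Chromosomes 10, 14 and 6 have the highest bars and chromosomes 17 and 2 the lowest.

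Some members lay near one another. With gaps under 500 kb they formed 22 groups holding 50 members, of which 17 groups were pairs. In 6 cases 2 members were adjacent with no other hotspot between. No such count is given for other eligible sites, so nothing is read from these numbers. The largest group had 4 members within 318 kb of distal chromosome 9, in Limd1, Lztfl1, a ciliary transport gene, and Fyco1. There H3K4me3 was 2.42 to 3.69 and DMC1 107 to 139, with DMC1 shares of 0.986, 0.492, 0.914 and 0.955. The closest pair, 6.61 kb apart inside Ttll7, a tubulin glutamylase gene (chromosome 3, 146918550 and 146925156), was of the CAST class and CAST-only at both sites, with shares of 0.00913 and 0.00844. A pair inside Suclg2, a gene of the citric acid cycle, was of different classes, with a CAST and a HUM site 42.3 kb apart, but both were CAST-only at 0.0178 and 0.0152 (chromosome 6, 95606748 and 95649021). On chromosome 8 adjacent CAST sites inside Nek5 and Nek3, kinase genes, were both B6-only at 0.995 and 0.988 (22115389 and 22132344). Neighbouring members were not always used alike. In the group at Txn1, the thioredoxin gene, and Svep1 on chromosome 4 the shares alternated over 282 kb, at 0.0217, 0.993 and 0.00840.

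The distance to the next hotspot of any kind had a median of 23.3 kb, against 28.1 kb at the weak and 27.5 kb at the strong comparison sites, and 25 members (10.5%) had another hotspot within 5 kb, against 10.2% and 9.94%. At 20 of these 25 the neighbour had the higher H3K4me3, as it did at 478 of 590 weak comparison sites. At 12 of the 25 it had the higher DMC1, against 160 of 754 strong comparison sites. These sets share a limit with the members but not their values. Median H3K4me3 was 4.60 at weak comparison sites and 5.74 at members, and median DMC1 was 228 at strong comparison sites and 127 at members. Nothing is read from these counts of neighbours. The member with the closest neighbour, 1.39 kb away, was a HUM site 39.1 kb from Prdm6 (chromosome 18, 53614981) with DMC1 125 and H3K4me3 2.53, beside a CAST site with DMC1 50.9 and H3K4me3 7.49. The next was a CAST site 188 kb from Col11a1, a collagen gene (chromosome 3, 114408994; DMC1 148, H3K4me3 4.65), 1.42 kb from a CAST site with 302 and 14.2. A HUM site inside Ptprg, a receptor phosphatase gene (chromosome 14, 11827129; DMC1 115, H3K4me3 6.02), lay 1.60 kb from a HUM site with 201 and 23.7. The sources used here do not say how signal was divided between hotspots so close, and the part of this in the weak H3K4me3 of the 25 members was not tested. At the other extreme, after the site near Dsc3, stood a CAST site 396 kb from any other hotspot and 368 kb from Tenm3, a teneurin gene (chromosome 8, 49890921; DMC1 111, H3K4me3 6.07, DMC1 share 0.461). Without the members within 5 kb of another hotspot, 50.7% were CAST-only.

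Position relative to genes set the members little apart. Inside protein-coding genes lay 131 (54.8%, 48.3% to 61.2%), against 51.7% of the weak and 56.7% of the strong comparison sites, and the shares were 51.7% for CAST and 60.0% for HUM members. These 131 fell in 125 genes or gene overlaps, of which 6 held more than 1 member, among them Robo2, an axon guidance receptor (139.7 and 122 in DMC1), and Gpc6, a glypican (102 and 110.4). Of the 229 members with a distance to a listed RefSeq start site, 4 (1.75%, 0.478% to 4.41%) were within 1 kb of one. This was 1.06% at the weak and 1.38% at the strong comparison sites. The median distance at members was 33.0 kb. The list of start sites was incomplete, so these distances are not always to the nearest gene start. It held none for chromosome 18, where the other 10 members lay. The site near Tcim, 58.2 kb from that gene, was 845 kb from any listed start. Among 32 genes of meiotic break formation and repair, 1 had a member within 5 kb, a CAST site inside Gm960, also named Top6bl, whose product is the partner of SPO11 in making breaks (chromosome 19, 4629552). It had DMC1 199, H3K4me3 5.67 and shares of 0.985 and 0.907, and was 1 of 21 eligible sites at genes of this list. Of 8 eligible sites at 15 genes of the meiotic axis or the synaptonemal complex, 0 were members. At 16 long neuronal genes 2 of 136 eligible sites were, in Dlg2, a synaptic scaffold gene (chromosome 7, 90658913; DMC1 106, H3K4me3 6.91), and Sgcz, a sarcoglycan gene (chromosome 8, 37768646; DMC1 166, H3K4me3 5.63), which is 1.47% against 1.19% of all eligible sites.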

How the data were processed

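Both signals come from reads mapped to mm10 with BWA, according to the submitters' processing notes, which name version 0.7.15 for the H3K4me3 and MNase samples and none for DMC1. Per the file headers, the deposited DMC1 signal is an intensity from the authors' peak caller, the H3K4me3 signal is their estimate of enrichment at the same site, and each B6 share is the fraction of the signal on the B6 chromosome. How signals were scaled to depth, and what minimum of reads a fraction needed, the sources used here do not give.

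The members and gene lists were chosen with earlier results of these data known. The rule was applied to the whole table with pandas 2.3.3 under Python 3.11.15, and the code was tested on simulated data. No test between groups was run. Shares of sites have exact Clopper-Pearson 95% intervals (SciPy 1.17.1), which cover counting error only. Alternatives changed each limit, the exclusions, the ratio rule, the bounds of single-homologue use and the gene bodies. The comparisons at like DMC1 were added after the data were seen. Motifs at the sites themselves, which were planned, need a genome sequence and were not analysed here.

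Sites named are the 10 highest ratios, the 5 highest DMC1 signals per allele, the 3 strongest per allele and kind of homologue use, the 3 largest gaps between shares in each direction, the 3 closest to and the 3 farthest from another site, those at the limits and those at listed genes. A site that this rule selects is not reported here. The site by Gm10318, the grouped members, Robo2 and Gpc6 were chosen after their values were seen. Genes and start sites came from RefSeq GRCm38.p6. Start-site distances were computed for 229 members, from an incomplete list that held no start site on chromosome 18.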

Additional observations from a re-analysis of the deposited data

Results flagged for a closer look

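Sites outside the rule also met both limits on the signals. On the X there were 24 of 955 sites (2.51%), with DMC1 from 100.4 to 567 and H3K4me3 from 0.712 to 6.95. Of these, 11 lay in the last 1 Mb before the most distal X site, 8 of them with a DMC1 B6 share, from 0.0201 to 0.502. The other 13 lay elsewhere on the X, where all 11 shares were 0.995 or more. Males carry a single X, so these 11 shares do not record a choice between homologues. On PRDM9-independent H3K4me3 peaks there were 8 of 1640 autosomal CAST and HUM sites (0.488%), 5 with a DMC1 share over 0.9 and 1 under 0.1. Of 1978 autosomal sites of the classes UNK and KO, which the headers do not define, 6 met the limits (0.303%), all UNK. Of their 5 DMC1 shares 4 were under 0.1.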

How the results depend on the processing

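Every value rests on 1 library per assay, and how far depth limits the shares cannot be given, since the reads behind them are unknown. Of 89 recomputed values 60 stayed within 1.5 times the count or within the 95% interval of the reported share or, for the median ratio, an exact order-statistic interval of the median. The number of sites was 66 with H3K4me3 at most 5, 718 at most 10, 525 with DMC1 at least 70, 76 at least 150 and 35 without repeated H3K4me3 values, since each changes the sites admitted. The HUM share was 28.8% with H3K4me3 at most 5 and 26.4% with sites taken by ratio. Single-homologue DMC1 was found at 89.5% with DMC1 at least 150, 68.6% without repeated values and 89.7% by ratio. For H3K4me3 it was 22.6% with H3K4me3 at most 5, 37.3% with DMC1 at least 150, 52.4% by ratio, 7.23% with bounds of 0.05 and 0.95, and 64.3% with bounds of 0.2 and 0.8. The B6-only share was 31.7% with H3K4me3 at most 10 and 45.7% by ratio. The CAST-only share, to which the alternatives were extended after the data were seen, was 40.6% with H3K4me3 at most 10, 44.1% with DMC1 at least 70, 68.4% with DMC1 at least 150, 40.0% without repeated values and 44.0% by ratio. Sites inside genes were 61.5% with 5 kb flanks and 61.9% with all annotated genes. The median ratio was 30.9 with H3K4me3 at most 5, 18.5 with H3K4me3 at most 10 or DMC1 at least 70, 32.1 with DMC1 at least 150 and 35.7 by ratio. The cause of these changes was not tested beyond the sites admitted. No paired analysis was possible because each assay has 1 library.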
